A study of Mus musculus with 6 samples.

Results

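The 10 genes described here were taken by symbol from the deposited expression table because their products hydroxylate, chaperone, trim or crosslink collagen. They are the prolyl 4-hydroxylase subunits P4ha1 and P4ha2, the lysyl hydroxylases Plod1, Plod2 and Plod3, the lysyl oxidases Lox, Loxl1 and Loxl2, the collagen chaperone Serpinh1 and the procollagen protease enhancer Pcolce. All 10 were found, 1 row each, among the 22375 rows of the table, and all 10 were among the 11593 genes tested. The cells were C2C12, an immortalised line of mouse myoblasts, the precursors that fuse into muscle fibers, so a single line stands for the muscle cell here. The CON group (3 libraries) was not stretched, and the 4H group (3 libraries) was stretched cyclically at 15% elongation for 4 h, in a study of what mechanical overload does to the diaphragm. Per the study's methods, cells were cultured with serum and attached to elastic plates coated with poly-lysine before stretch. Because the labels do not state whether the libraries of a group came from separate cultures, p values measure only the spread between these libraries, which may be technical.

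Collagen is modified in the endoplasmic reticulum before it is secreted. Prolyl 4-hydroxylase hydroxylates prolines so that the triple helix is stable at body temperature, and lysyl hydroxylases prepare the lysines that later carry sugars and crosslinks. SERPINH1, also called HSP47, binds the folded procollagen helix on its way to the Golgi. Outside the cell the propeptides are cut off, a step that PCOLCE enhances, and lysyl oxidases, which are copper enzymes, turn lysines and hydroxylysines into the aldehydes that crosslink collagen and elastin. In muscle and other tissues these enzymes are known for their part in stiff, fibrotic matrix.

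Levels are given as FPKM, fragments per kilobase of transcript and per sequencing depth, which allows genes to be compared per length. The log2 values of any pair of libraries correlated at 0.992 to 0.993 within a group and at 0.967 to 0.970 between the groups (Pearson's r across genes, which are not independent replicates). FPKM leaves the total fragments per library unknown, but the steps among values below 0.1 FPKM (12 to 23 genes for each pair of libraries) put the libraries within 1.55% of each other in relative depth. The cells carried the myoblast marker Myod1, at 5.13 ± 0.573 FPKM (SD) in unstretched and 18.2 ± 0.738 FPKM in stretched cells. Of 11 markers of differentiated muscle, 9 were too low to be tested and the other 2 rose (sums of 1.95 to 2.48 and 3.13 to 3.74 FPKM). Of the 8 myoblast markers tested, 6 rose and 1 fell, Myf5, from 15.8 ± 0.851 to 9.82 ± 1.13 FPKM. The summed level of the myoblast markers was 217.4 to 226.0 FPKM in the CON libraries and 307.5 to 322.5 FPKM in the 4H libraries. Fibroblast markers summed to 3.81 to 4.28 and 6.07 to 7.65 FPKM, with Tcf21 listed at 0 in all 6 libraries. Of the 2 tested, 1 rose, Pdgfra, from 3.15 ± 0.288 to 5.08 ± 0.317 FPKM. Macrophage markers summed to 6.73 to 8.51 and 16.5 to 18.6 FPKM. Nearly all of this was Cd68, which rose from 7.57 ± 0.892 to 16.4 ± 1.29 FPKM. The defining markers Ptprc and Adgre1 were listed at 0 in all 6 libraries. Csf1r was at 0, 0 and 0.0272 FPKM without stretch and 1.48, 0.966 and 0.792 FPKM after it, and it reached the filter of 0.5 FPKM through the 4H libraries alone, so its test is not counted here. Endothelial markers summed to 0.101 to 0.121 and 0.253 to 0.387 FPKM, and none of them was tested. These marker counts stand beside 46.7% of all genes tested that passed, 22.6% higher and 24.1% lower. The part of these markers in the results below was not tested.

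After 4 h of stretch, P4ha2, Plod2 and Loxl2 rose, Loxl1, Serpinh1 and Pcolce fell, and P4ha1, Plod1, Plod3 and Lox did not pass an adjusted p of 0.05 (limma across all genes tested, Benjamini-Hochberg adjustment). Thus 6 of 10 passed, 3 in each direction, where 46.7% of all genes tested passed, 22.6% higher and 24.1% lower. Given that background, the count of 6 is no result about these 10 genes. The median log2 fold change of the 10 was 0.05, and that of all genes tested was -0.01. At the thresholds of the study, which also ask for a log2 fold change of 1 or more in size, Loxl2 was the 1 gene of the 10 called, against 3.88% of all genes tested. The libraries of the groups did not overlap in 7 of the 10 genes, the 6 above and P4ha1, where 56.7% of all genes tested did not overlap. In bulk RNA a change in the number of cells that express a gene and a change in RNA per cell cannot be told apart.

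Levels of the 10 genes spanned a wide range that was similar in order in both groups. In the CON group Serpinh1 was highest, above 98.4% of all genes tested, and was followed by Pcolce, Lox, Plod3, Plod1, P4ha1, Plod2, Loxl1, P4ha2 and Loxl2, the last of which was above 4.51% of them. Neighbours whose CON libraries overlapped were Plod1 with P4ha1 and Loxl1 with P4ha2. In the 4H group P4ha2 stood next to Plod2 and above Loxl1, and the overlapping neighbours were Plod1 with P4ha1 and P4ha2 with Plod2.

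**Figure D1:**
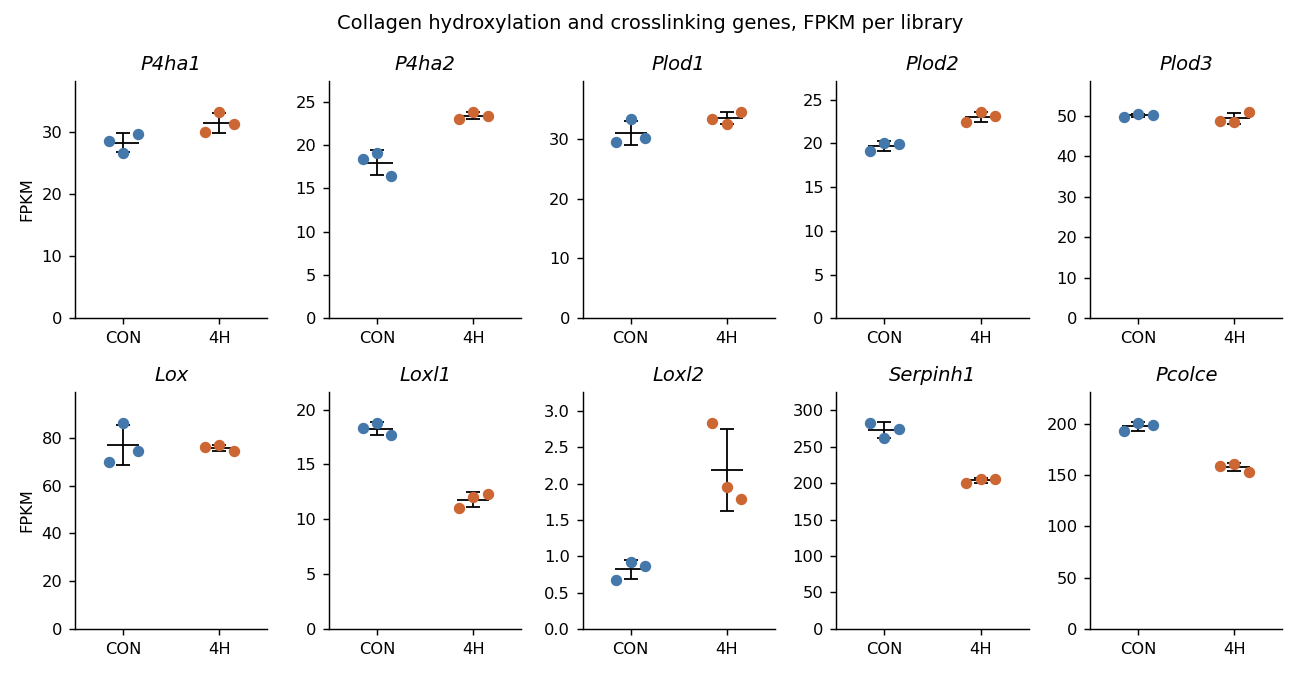
FPKM of each of the 10 genes (vertical axes, each from 0) in the 3 CON and 3 4H libraries; points are libraries, the horizontal mark is the mean and the bars are ± 1 SD. The groups are apart in P4ha1, P4ha2, Plod2, Loxl1, Loxl2, Serpinh1 and Pcolce, and overlap in Plod1, Plod3 and Lox.

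Among the prolyl 4-hydroxylases, the catalytic α subunits that pair with the β subunit P4HB, P4ha2 rose and P4ha1 did not pass the test. P4ha2 (ENSMUSG00000018906, chr11:54100095-54131665, plus strand) was at 18.4, 19.1 and 16.4 FPKM in CON replicates 1 to 3 and at 23.0, 23.8 and 23.3 FPKM in 4H replicates 1 to 3. Every 4H library was above every CON library, and the 4H mean was 1.3 times the CON mean. On the log2 scale P4ha2 was 0.37 higher, with a standard error of 0.06 (adjusted p = 0.0012). P4ha1 (ENSMUSG00000019916, chr10:59323296-59373304, plus strand) was at 28.6, 26.7 and 29.7 FPKM without stretch and at 30.0, 33.3 and 31.3 FPKM with it. Its groups were also apart, but narrowly, since the lowest 4H library lay just above the highest CON library. For P4ha1 the log2 fold change was 0.15, with a 95% interval of 0.03 to 0.28 and an adjusted p of 0.0507 in limma. The adjusted p was 0.0379 without 4H replicate 1 and 0.0438 without CON replicate 3, and it ranged from 0.0214 to 0.155 over the alternatives. The remaining α subunit, P4ha3, rose from 8.71 ± 0.555 to 13.4 ± 0.823 FPKM (SD over 3 libraries), a log2 change of 0.60 (adjusted p = 0.00021). P4hb, the β subunit and a protein disulfide isomerase, rose from 263.5 ± 5.46 to 338.0 ± 6.77 FPKM, a log2 change of 0.36 (adjusted p = 2.38e-05).

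The windows of 250 bases upstream of the RefSeq starts of P4ha1 (chr10:59323046-59323295, plus strand) and P4ha2 (chr11:54100674-54100923, plus strand) are shown because these paralogs, both known as hypoxia-inducible genes, differed in whether they passed the test. Coordinates are those of GRCm38.p6, a release of the mouse assembly also called mm10, the build named in the submitters' processing notes. Capitals mark the core of the hypoxia response element, ACGTG or GCGTG, on either strand. The first of these also lies inside the E-box CACGTG.
P4ha1: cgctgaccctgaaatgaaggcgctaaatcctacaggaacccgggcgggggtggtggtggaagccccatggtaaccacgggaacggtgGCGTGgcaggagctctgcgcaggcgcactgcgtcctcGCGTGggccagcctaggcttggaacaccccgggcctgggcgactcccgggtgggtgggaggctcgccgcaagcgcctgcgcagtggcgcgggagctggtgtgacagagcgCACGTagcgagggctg
P4ha2: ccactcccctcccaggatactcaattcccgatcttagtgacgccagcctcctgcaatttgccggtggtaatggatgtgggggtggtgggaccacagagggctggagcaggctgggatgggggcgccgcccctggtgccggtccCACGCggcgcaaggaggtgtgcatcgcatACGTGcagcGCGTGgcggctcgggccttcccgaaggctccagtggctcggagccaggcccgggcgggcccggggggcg
Each of these windows held 3 such cores and no annotated exon, and that of P4ha2 lies inside the annotated span of the gene. A window was listed for 6 of the 10 genes (P4ha1, P4ha2, Plod1, Plod3, Serpinh1 and Pcolce), and all 6 held the core, with 1 to 4 matches, as did 38.6% of all 32851 windows of the same length. The window of Plod3 overlaps annotated exons of Znhit1. That of Pcolce overlaps annotated exons of Pcolce itself and lies inside the annotated span of that gene. The 6 windows were 55.6 to 70.0% G and C, and the median of all windows was 52.4%. None of the 6 held the AP-1 motif TGANTCA or the TEAD motif GGAATG, which 6.75% and 12.6% of all windows held. The GC box GGGCGG was in 5 of the 6 and in 32.7% of all windows, and TATAAA was in that of Plod1 and in 12.4% of all. Genes whose window held the core included 1 that rose, 2 that fell and 3 that did not pass the test.

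Of the lysyl hydroxylases, Plod2 rose, and Plod1 and Plod3 did not pass. PLOD2 hydroxylates lysines in the telopeptides, the ends of the collagen molecule, from which the stable pyridinoline crosslinks arise, whereas PLOD1 acts mainly on the helix and PLOD3 also transfers sugars to hydroxylysine. Plod2 (ENSMUSG00000032374, chr9:92542223-92608428, plus strand) was at 19.1, 20.1 and 19.9 FPKM in CON replicates 1 to 3 and at 22.4, 23.6 and 23.1 FPKM after stretch. The 4H libraries were all higher, by 0.22 on the log2 scale with a standard error of 0.04 (adjusted p = 0.00356). Plod1 (ENSMUSG00000019055, chr4:147909753-147936767, minus strand) was at 29.5, 33.3 and 30.2 FPKM in unstretched cells and at 33.4, 32.5 and 34.5 FPKM in stretched cells. CON replicate 2 reached into the range of the 4H libraries, and the log2 fold change of 0.11 had a 95% interval of -0.01 to 0.23 (adjusted p = 0.123). Without CON replicate 2 it was 0.16 (adjusted p = 0.0245), and over all alternatives the adjusted p of Plod1 ranged up to 0.320. Plod3 (ENSMUSG00000004846, chr5:136987019-136996648, plus strand) was at 49.7, 50.4 and 50.2 FPKM in unstretched cells and at 48.7, 48.5 and 50.9 FPKM in stretched cells. These ranges overlapped, and the log2 fold change of -0.02 had a 95% interval of -0.10 to 0.06 (adjusted p = 0.628), with a sign that turned between alternatives. Exons of Plod2, Plod3 and Lox each overlap those of 1 annotated gene on the other strand, those of Plod3 also overlap Mir702 on the same strand, and the sources do not say whether counting used the strand.

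Of the lysyl oxidase members, Loxl2 rose, Loxl1 fell and Lox did not pass. LOX is the founding enzyme of the family, LOXL1 is best known for elastic fibers, and LOXL2 for the crosslinking of basement membrane and fibrotic collagen. Lox (ENSMUSG00000024529) was at 69.9, 86.4 and 74.7 FPKM in CON replicates 1 to 3 and at 76.4, 76.9 and 74.4 FPKM after stretch. The CON libraries of Lox were spread more widely (coefficient of variation 11.0%) than the 4H libraries (1.78%) and enclosed them. Its log2 fold change was -0.01 (95% interval -0.18 to 0.15, adjusted p = 0.881) and ranged from -0.08 to 0.07 over the alternatives. Loxl1 (ENSMUSG00000032334, chr9:58287738-58313186, minus strand) was at 18.3, 18.8 and 17.7 FPKM in unstretched cells and at 11.0, 12.0 and 12.3 FPKM in stretched cells. No 4H library came near the CON range, and Loxl1 fell to 0.645 ± 0.0359 of the CON mean (SD of the 3 libraries). On the log2 scale this was -0.61 with a standard error of 0.06 (adjusted p = 5.68e-05), larger in size than the change of 89.2% of all genes tested.

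Loxl2 (ENSMUSG00000034205, chr14:69609068-69695834, plus strand) was the lowest of the 10 and had the largest fold change. It was at 0.676, 0.92 and 0.862 FPKM in unstretched cells and at 2.84, 1.95 and 1.79 FPKM in stretched cells. All 4H libraries were higher, and 4H replicate 1 stood well above the others. In limma the log2 fold change of Loxl2 was 1.01 with a standard error of 0.17 and a 95% interval of 0.63 to 1.39 (adjusted p = 0.00135), on the scale of log2(FPKM + 0.5), which understates the change of low values. As a ratio of FPKM the 4H libraries were at 2.68 ± 0.691 times the CON mean (SD). The adjusted p was at most 0.00672 wherever Loxl2 was tested, but the log2 fold change was 0.85 without 4H replicate 1 and 0.93 without CON replicate 1, below the threshold of 1. Of the 75-base stretches in its annotated transcripts, 42.7% recur in the unprocessed pseudogene Gm21451, which has no row in the table, so the level of Loxl2 is uncertain to the extent that counting split or merged these reads. Its exons also overlap those of 1 annotated gene on each strand.

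The remaining lysyl oxidases, Loxl3 and Loxl4, both rose. Loxl3 went from 21.8 ± 0.737 to 34.4 ± 1.03 FPKM, a log2 change of 0.65 (adjusted p = 9.36e-06), and Loxl4 from 17.1 ± 0.461 to 20.0 ± 0.725 FPKM, a log2 change of 0.22 (adjusted p = 0.00499). Thus 3 of the 5 lysyl oxidase genes rose, Loxl1 fell, and Lox, the most abundant, did not pass, where 22.6% of all genes tested rose and 24.1% fell.

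Serpinh1 and Pcolce, the most abundant of the 10, both fell. Serpinh1 (ENSMUSG00000070436, chr7:99345376-99353239, minus strand) was at 283.0, 261.3 and 273.8 FPKM in CON replicates 1 to 3 and at 199.6, 206.2 and 205.6 FPKM after stretch. The groups lay far apart, with a log2 difference of -0.42 and a standard error of 0.03 (adjusted p = 3.12e-05), and the 4H libraries were at 0.747 ± 0.0135 times the CON mean (SD). Pcolce (ENSMUSG00000029718, chr5:137605103-137613784, minus strand) was at 192.4, 200.9 and 198.4 FPKM in unstretched cells and at 158.5, 160.6 and 153.1 FPKM in stretched cells. Again all 4H libraries were lower, with a log2 difference of -0.32 and a standard error of 0.03 (adjusted p = 6.75e-05). Exons of Pcolce overlap those of 1 annotated gene on each strand, and 0.926% of its 75-base stretches recur in Fbxo24. Pcolce2, the other procollagen C-proteinase enhancer, rose from 18.8 ± 0.813 to 31.5 ± 0.58 FPKM, a log2 change of 0.73 (adjusted p = 6.06e-06). It was still lower than Pcolce in every library.

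The upstream window of Serpinh1 (GRCm38.p6, chr7:99353240-99353489, minus strand) is shown because this gene, a heat shock protein, had the largest absolute fall in FPKM of the 10. Capitals again mark ACGTG or GCGTG on either strand.
Serpinh1: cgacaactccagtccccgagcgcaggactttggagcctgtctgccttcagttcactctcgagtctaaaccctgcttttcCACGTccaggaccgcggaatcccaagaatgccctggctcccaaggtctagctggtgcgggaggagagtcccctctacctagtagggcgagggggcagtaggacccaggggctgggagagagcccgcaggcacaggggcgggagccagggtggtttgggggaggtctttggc
It held 1 core and 1 GC box. The paired heat shock repeats GAANNTTC and TTCNNGAA had no match in these letters, while 12.8% of all windows held at least 1 and, of the 6 windows listed, that of P4ha2 did.

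**Figure D2:**
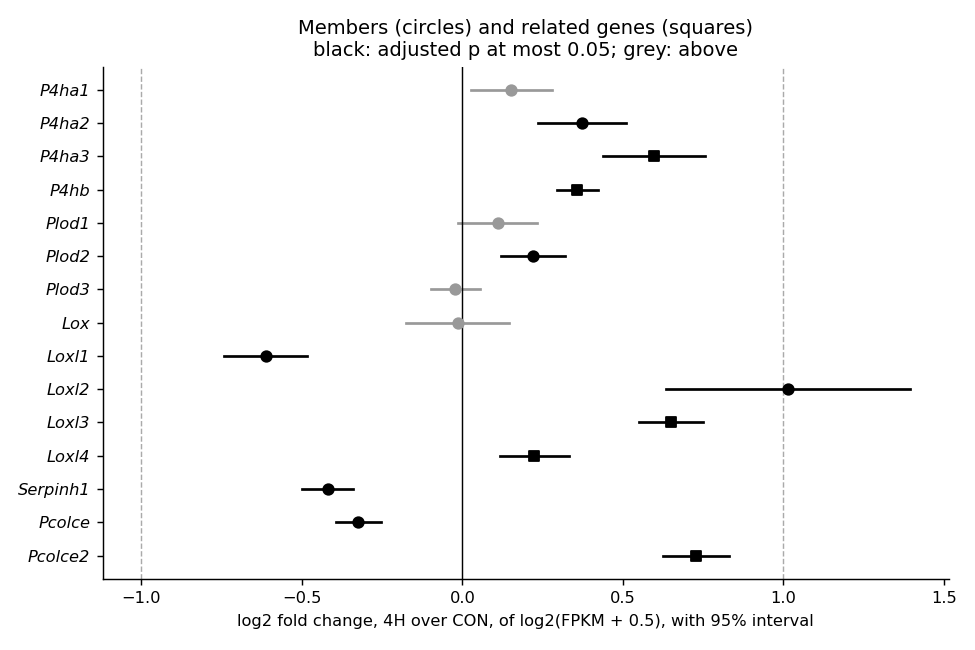
Log2 fold change of 4H over CON with its 95% interval from limma for the 10 genes (circles) and 5 related genes (squares), ordered by role; black marks an adjusted p of at most 0.05, grey a higher one, and dashed lines stand at -1 and 1. Loxl2 lies at 1.01, and Loxl1, Serpinh1 and Pcolce lie left of 0 with their whole intervals.

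Paralogs of a family were compared by the log2 ratio of their FPKM within each library, a quantity that a scaling factor for the library cannot move. In all 16 pairs within the P4ha, Plod and Lox families, 7 of them between the genes described here, the ratios of the 4H libraries did not overlap those of the CON libraries, where 56.5% of all pairs of genes above 0 in every library did not. Pairs of a family share genes, so the 16 are not separate observations. Each pair had p = 0.1 in a two-sided exact permutation test, the smallest that 3 libraries against 3 allow, and 0.1 after adjustment over the 16 pairs, so no pair could pass and the ratios are given as a description. P4ha1 was 1.58 times P4ha2 without stretch and 1.35 times with it (geometric means). Lox was 4.2 times Loxl1 without stretch and 6.45 times with it, while the ratio of Lox to Loxl2 went from 94.4 to 35.3, a log2 difference of -1.42 that was -1.03 with 0.5 FPKM added to each level. For Plod2 to Plod3 the ratio went from 0.393 to 0.466.

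As a share of the summed FPKM of its family, P4ha1 went from 51.5 ± 2.96% to 46.1 ± 0.685% (SD over 3 libraries) and P4ha3 from 15.8 ± 1.01% to 19.7 ± 0.69%, while the share of P4ha2 overlapped between the groups. The P4ha sum itself was 55.0 ± 0.339 FPKM in unstretched and 68.3 ± 2.71 FPKM in stretched cells. Plod2 made up 19.5 ± 0.243% of the lysyl hydroxylases in unstretched and 21.8 ± 0.74% in stretched cells, and Plod3 49.7 ± 1.04% and 46.6 ± 0.271%. Among the lysyl oxidases, Lox went from 57.0 ± 2.14% to 52.6 ± 0.135% and Loxl1 from 13.6 ± 0.757% to 8.16 ± 0.532%. Loxl3 took a larger share in stretched cells, 23.8 ± 0.376% against 16.2 ± 0.649%, and Loxl2 remained small at 1.52 ± 0.384% against 0.606 ± 0.0669%. The sum of the 5 lysyl oxidases overlapped between the groups, at 134.9 ± 9.94 and 144.4 ± 2.66 FPKM.

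**Figure D3:**
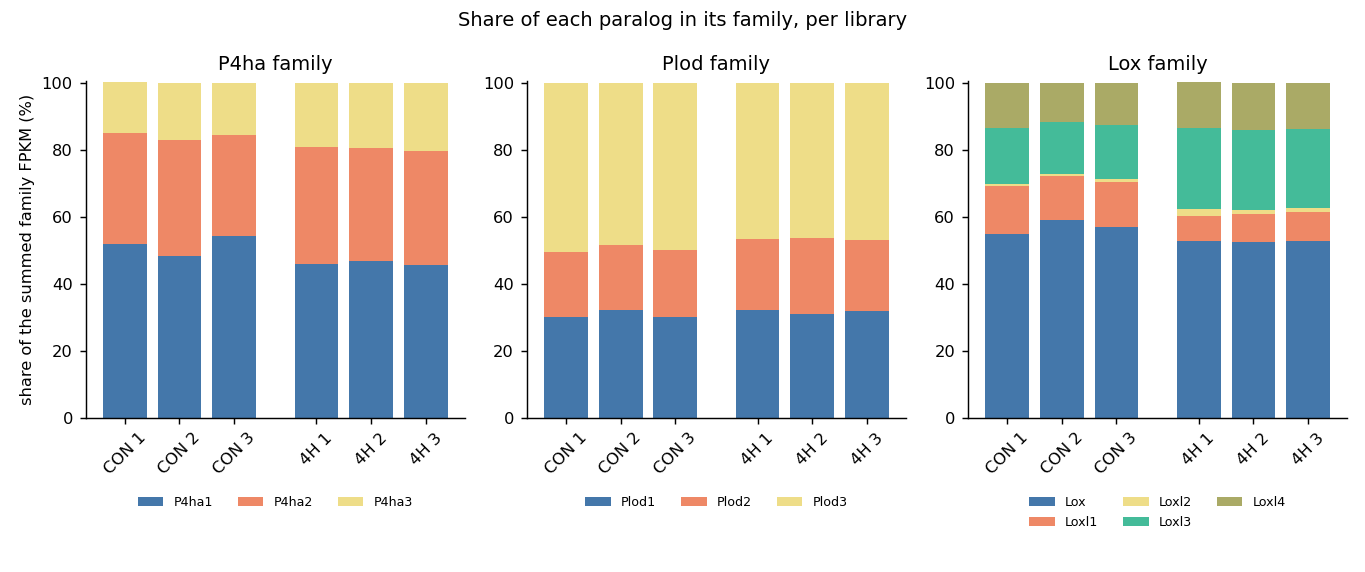
Share of each paralog in the summed FPKM of its family (percent, vertical axis) in each of the 3 CON and 3 4H libraries, as stacked bars. In the Lox family the Loxl1 segment is 12.9 to 14.4% in the CON libraries and 7.61 to 8.67% in the 4H libraries, and the Loxl3 segment is larger in every 4H library.

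Genes that work with these enzymes were described from lists by their role, and each count is to be read against the 46.7% of all genes tested that passed, 22.6% higher and 24.1% lower. Of the 8 prolyl hydroxylation partners tested, 5 rose and 1 fell, with a median log2 fold change of 0.27 beside -0.01 for all genes tested. Besides P4hb and P4ha3, P3h2, a prolyl 3-hydroxylase, rose from 1.19 ± 0.0857 to 2.06 ± 0.236 FPKM, a log2 change of 0.60 (adjusted p = 0.00292). P3h3 fell from 6.59 ± 0.307 to 4.6 ± 0.202 FPKM, a log2 change of -0.47 (adjusted p = 0.000803). Among 4 tested genes of hydroxylysine glycosylation and telopeptide folding, 2 rose and 2 fell, with a median of 0.01. Fkbp14, a prolyl isomerase of the endoplasmic reticulum, rose from 4.57 ± 0.673 to 7.37 ± 0.228 FPKM, a log2 change of 0.64 (adjusted p = 0.00119). Colgalt1, which adds galactose to hydroxylysine, fell from 59.6 ± 0.643 to 44.1 ± 0.408 FPKM, a log2 change of -0.43 (adjusted p = 1.29e-05).

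Propeptide processing genes included the largest rise in these lists. Of 5 tested, 4 rose and 1 did not pass, where 22.6% of all genes tested rose, and the median was 0.73. Tll1, a protease of the BMP1 family that removes the C-propeptide, rose from 0.955 ± 0.178 to 4.63 ± 0.581 FPKM, a log2 change of 1.82 (adjusted p = 1.52e-05) that passed both thresholds. Bmp1 itself, which cleaves procollagen and the LOX precursor, rose from 38.5 ± 0.773 to 42.6 ± 1.14 FPKM, a log2 change of 0.14 (adjusted p = 0.013). In folding and export, 7 of 14 genes rose and 2 fell, where 22.6% and 24.1% of all genes tested did, with a median of 0.16. Creb3l2, a transcription factor of the secretory pathway, rose from 5.32 ± 0.153 to 9.39 ± 0.551 FPKM, a log2 change of 0.76 (adjusted p = 4.33e-05). Mia2, whose product acts at the exit sites of the endoplasmic reticulum, fell from 44.9 ± 1.29 to 32.6 ± 2.44 FPKM, a log2 change of -0.46 (adjusted p = 0.000313).

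Among 4 tested partners and targets of lysyl oxidases, 2 rose and 1 fell, with a median of 0.07, and the fall was the largest in these lists. The rise of Fn1, which encodes fibronectin, was near the threshold (adjusted p = 0.0481) with overlapping groups, and it was lost without 4H replicate 1 or 3, without CON replicate 1 or 3, with no filter, without a trend and with a replicate block. Fbln5, an elastic fiber protein that binds LOXL1, was at 11.7, 15.9 and 16.5 FPKM in unstretched cells and at 2.93, 2.43 and 2.78 FPKM in stretched cells. Its log2 fold change was -2.23 (adjusted p = 4.67e-06), lower as Loxl1 was. Efemp2, which brings LOX to elastin, rose from 45.3 ± 1.82 to 50.2 ± 0.832 FPKM, a log2 change of 0.15 (adjusted p = 0.0144). Eln, the gene of elastin, was listed at 0 in all 6 libraries. Of the transglutaminases, which crosslink matrix by another chemistry, Tgm2 was the 1 of 4 tested, and it rose from 2.89 ± 0.24 to 4.39 ± 0.551 FPKM, a log2 change of 0.53 (adjusted p = 0.0042).

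**Figure D4:**
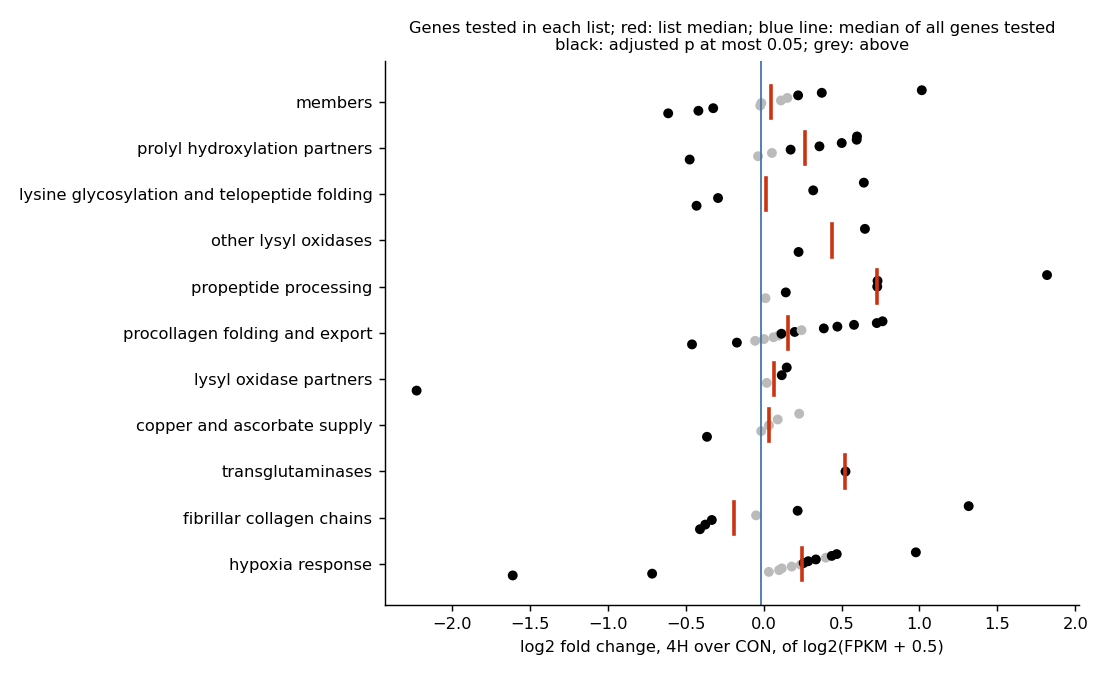
Log2 fold change of 4H over CON (horizontal axis) for every tested gene of each list; black points have an adjusted p of at most 0.05, grey points a higher one, red bars are list medians and the blue line is the median of all genes tested, -0.01. The points farthest out are Fbln5 at -2.23 and Tll1 at 1.82.

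The tested fibrillar collagen chains, which are part of the collagens on which these enzymes act, were lower in sum. Of 6 chains tested, 2 rose and 3 fell, where 22.6% of all genes tested rose and 24.1% fell, with a median of -0.19. Col3a1, the most abundant chain, fell from 160.5 ± 10.3 to 123.5 ± 3.07 FPKM (limma, adjusted p = 0.000341), and Col5a2 from 91.4 ± 1.33 to 72.5 ± 0.876 FPKM. Col1a2 fell from 123.1 ± 2.52 to 92.6 ± 1.05 FPKM, a log2 change of -0.41 (adjusted p = 1.29e-05). Col1a1 was low, at 6.89 ± 0.293 and 6.65 ± 0.256 FPKM (adjusted p = 0.57). Col5a3 rose from 2.83 ± 0.368 to 7.77 ± 0.516 FPKM, a log2 change of 1.32 (adjusted p = 1.87e-05). The summed level of the 6 chains was 407.7, 440.4 and 425.2 FPKM in unstretched cells and 353.0, 348.3 and 346.4 FPKM in stretched cells. Chains of other collagens were not in this sum. Col6a3, a chain of this kind, rose from 34.4 to 111.1 FPKM, a log2 change of 1.68 (limma, adjusted p = 5.13e-07). Other such chains are not described here.

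Set against the sum of the 6 fibrillar chains, 7 of the 10 genes stood higher in every 4H library than in any CON library. So did 59.2% of all genes tested, while Serpinh1 and Pcolce overlapped between the groups. Because the sum itself was lower after stretch, a gene with equal FPKM in all libraries would read 1.21 times as high on this scale, and the median gene tested read 1.2 times as high. The ratio was chosen after the values had been seen and carries no test. Per 100 FPKM of fibrillar chains, Serpinh1 was at 69.4, 59.3 and 64.4 without stretch and at 56.5, 59.2 and 59.3 with it. Pcolce was at 46.5 ± 0.804 and 45.1 ± 0.963 (SD over 3 libraries). P4ha2 was at 4.23 ± 0.336 and 6.69 ± 0.164, 1.58 times as high after stretch, and P4ha1 was at 6.68 ± 0.545 and 9.03 ± 0.523, 1.35 times as high. For Plod1, Plod2 and Plod3 the 4H level was 1.31, 1.42 and 1.2 times the CON level, and for Loxl2 it was 3.26 times. Lox was at 18.1 ± 1.33 and 21.7 ± 0.314, 1.2 times as high, so Plod3 and Lox, whose FPKM did not pass the test, stood close to the value of a gene with equal FPKM. Loxl1 was at 4.31 ± 0.172 and 3.37 ± 0.22. Of the 10 genes, Loxl1 alone had all 4H libraries below the CON libraries on this scale, as did 7.25% of all genes tested.

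**Figure D5:**
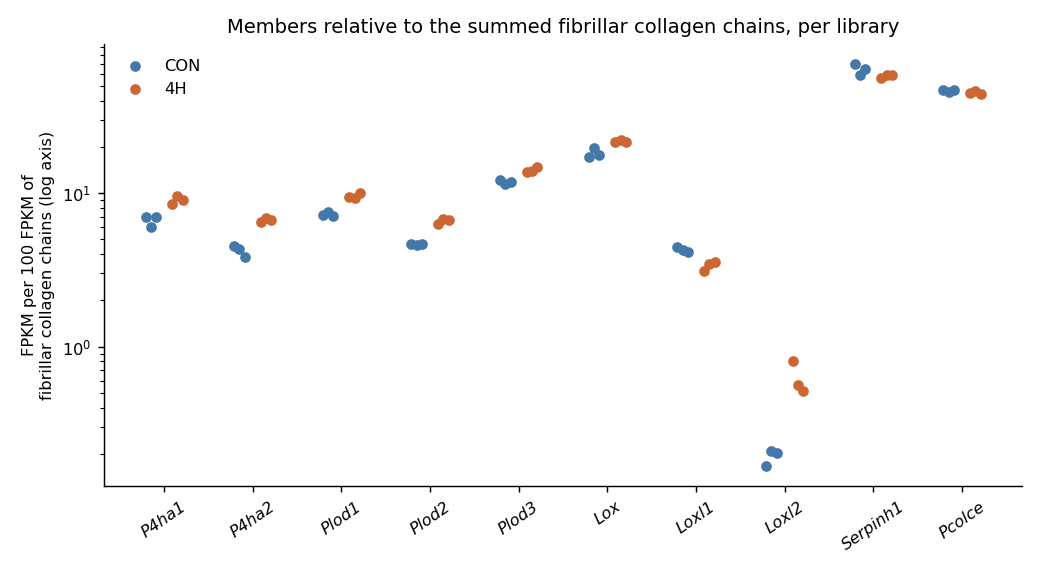
FPKM of each gene per 100 FPKM of the summed fibrillar collagen chains (log axis) in the 3 CON and 3 4H libraries. The 4H points lie above the CON points in 7 genes, where a gene with equal FPKM would be 1.21 times as high, below them in Loxl1, and overlap them in Serpinh1 and Pcolce.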

How the data were processed

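RNA-seq of C2C12 cells, 3 CON and 3 4H libraries grouped by the labels, was analysed. The authors deposited a table of FPKM values, made from poly(A)-selected, strand-specific libraries read as paired ends. The submitters' processing notes name mm10 as the build. For the aligner, the counter and the annotation, nothing is stated in the labels or the paper. As FPKM is not a count, limma 3.58.1 in R 4.3.3 (eBayes with a trend, two-sided) was run on log2(FPKM + 0.5). Genes entered at an average of 0.5 FPKM or more across libraries, which left 11593, and p values were adjusted over all of them by Benjamini-Hochberg, without a replicate block. The total fragments per library are not held by FPKM, and low values give relative depth alone, so no counting error is given. DESeq2, which the study used, was not run because it needs counts. The fitting step was first tested on simulated data.

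Coordinates, exon overlap and recurring 75-base stretches came from GENCODE M21 (GRCm38), and promoter windows from the RefSeq table of GRCm38.p6, without the 50 bases after the start. Python 3.11.15, pandas 2.3.3, SciPy 1.17.1 and matplotlib 3.10.9 served for tables and plots.

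The genes and lists were chosen with earlier results of these data known. Named genes were all 10, the other P4ha and Lox paralogs, P4hb, Bmp1, Col1a1, and from each other pathway list every gene past both thresholds and the largest rise and fall that passed the adjusted p at an average of 1 FPKM or more. Pcolce2, Eln, Fbxo24, Gm21451, Mir702, Znhit1, Atp7a, Fn1, P3h1, Col3a1, Col5a2 and Col6a3 were named after their values were seen. So were the markers Myod1, Myf5, Tcf21, Pdgfra, Cd68, Csf1r, Ptprc and Adgre1. Alternatives were pseudocounts of 0.1 and 1, no filter, filters at 1 and 5 FPKM, a replicate block, no trend, TPM, median-of-ratios and quantile scaling, a fold taken from group averages, 0.5 FPKM added before paralog ratios, and each library left out. The relation to fibrillar chains was added after seeing the data.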

Additional observations from a re-analysis of the deposited data

How the results depend on the processing

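P4ha2, Plod2, Loxl1, Loxl2, Serpinh1 and Pcolce kept their direction and an adjusted p of at most 0.05 under all alternatives in which they were tested, 16 for each but Loxl2, which the filter at a mean of 5 FPKM removed. Over those alternatives and the reported value the log2 fold change of Serpinh1 lay between -0.45 and -0.34, and that of P4ha2 between 0.31 and 0.42. P4ha1 passed an adjusted p of 0.05 in 6 of the 17 fits, among them rescaling to TPM (0.0214), quantile normalization (0.0366) and filters at 1 FPKM (0.0499) and 5 FPKM (0.0465), and Plod1 only without CON replicate 2. Of the 10 genes, the number past both thresholds was 0 with a pseudocount of 1, with quantile normalization and with the filter at 5 FPKM, and 0 to 1 with each library left out (0 without 4H replicate 1 or CON replicate 1). Loxl2 was the gene concerned, and its log2 fold change ranged from 0.80 to 1.30. Over all genes the number past both thresholds was 450, fell to 245 with the filter at 5 FPKM and reached 703 with TPM, which also shifts what the fixed pseudocount and filter amount to. The cause was not tested. With 0.5 FPKM added, the groups of all 16 paralog ratios still did not overlap, and the log2 difference of Lox to Loxl2 moved from -1.42 to -1.03, of Loxl2 to Loxl3 from 0.74 to 0.36 and of Loxl2 to Loxl4 from 1.17 to 0.79. No scaling moved the median of all genes tested beyond -0.03 or 0.03.

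Same-numbered CON and 4H libraries did not deviate together (correlations 0.025, -0.0929 and -0.126), no library correlated best with its own number, and the numbers were not treated as pairs. These are the biosample numbers of the descriptions. The titles number the stretched libraries 1, 3 and 4, and by title the libraries that share a number correlated at 0.025 and 0.176. The latter, of CON replicate 3 with 4H replicate 2, was the highest of all CON and 4H pairs. These are too few pairs to show a pairing, and pairs by title were not fitted. With the replicate block, which used the biosample numbers, 6 of the 10 genes passed an adjusted p of 0.05 and 452 genes in all passed both thresholds. That block ended no call among the 10. Among the listed genes it lowered the number that passed from 43 to 41, with 5 in place of 6 prolyl hydroxylation partners (P3h1 lost) and 2 in place of 3 lysyl oxidase partners (Fn1 lost). The prolyl hydroxylation partners were also 5 with the filter at 5 FPKM and without 4H replicate 2, CON replicate 2 or CON replicate 3. Total depth is not held by FPKM, and Loxl2 had the largest coefficients of variation of the 10 (15.5% in the CON and 25.8% in the 4H libraries).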

Other observations

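P4ha1, P4ha2, Plod2 and Lox are known as hypoxia-inducible genes, and a list of 15 other genes of the hypoxia response was read beside them. Of 14 tested, 6 rose and 2 fell in stretched cells (limma, Benjamini-Hochberg adjustment), where 22.6% of all genes tested rose and 24.1% fell. The 8 that passed became 7 with the filter at 5 FPKM and without 4H replicate 1 or 2 or CON replicate 1 or 3. With TPM they became 9. The median log2 fold change was 0.25, beside -0.01 for all genes tested. Egln3, a prolyl hydroxylase that marks HIF for degradation, rose from 8.08 ± 0.838 to 16.4 ± 0.858 FPKM (SD over 3 libraries), a log2 change of 0.98 (adjusted p = 2.94e-05). Ndrg1, another gene of this list, fell from 99.2 ± 2.09 to 32.2 ± 1.51 FPKM, a log2 change of -1.61 (adjusted p = 8.56e-08).

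Prolyl and lysyl hydroxylases need ascorbate, and lysyl oxidases need copper. Of 5 tested genes that supply them, 1 fell and 4 did not pass, where 46.7% of all genes tested passed, with a median of 0.03, and 2 passed with a filter at 1 FPKM, without a trend, with TPM or without CON replicate 1. Slc31a1, the copper importer CTR1, fell from 20.0 ± 1.42 to 15.4 ± 0.791 FPKM, a log2 change of -0.36 (adjusted p = 0.00194). Atp7a, the pump that loads copper onto lysyl oxidases in the secretory pathway, was at 4.46 ± 0.437 and 5.29 ± 0.0808 FPKM (adjusted p = 0.0514) and was named after its values were seen.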
